A study of Mus musculus with 8 samples.

Results

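Patrolling monocytes were selected on measured values, the UMIs (tagged mRNA molecules) of a few genes, among single liver cells of mice with nonalcoholic steatohepatitis (NASH). A cell belonged to them if it held at least 2 UMIs of Cd300e and Treml4 together, no UMI of Gpnmb, Trem2, Clec4f, Top2a, Cd3e or Cd79a and at most 2 UMIs of Cxcl9 and Cxcl10 together. This gave 7403 of the 65518 cells of the NASH mice that had more than 500 genes and under 25% mitochondrial UMIs. Over all mice, 80474 cells met those limits on genes and mitochondrial UMIs. Because measured UMIs chose the cells, the levels of the gate genes and the scarcity of such cells in control mice describe the choice and were not tested.

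The livers came from 8 C57BL/6 wild-type mice. The 2 control mice had a normal diet and plain drinking water. The 3 HFD+F+CCl4 mice had a high-fat diet and fructose solution, the 3 WD+F+CCl4 mice had a western diet, richer in cholesterol, and fructose solution, and both models received CCl4, a hepatotoxin, weekly by intraperitoneal injection for 16 weeks. Age and sex of the mice are not given in the labels. Perfused whole livers were digested with enzymes, red cells were lysed, dead cells were taken out with magnetic beads, and the rest was measured with no gate for a cell type in 1 droplet library (10x Chromium 3') per mouse, so a share of cells also depends on which cells survived these steps. Libraries held 49738207, 52880918 and 55186165 UMIs in the HFD+F+CCl4 mice, 62694610, 46275590 and 64855024 in the WD+F+CCl4 mice, and 36699315 and 6135827 in the control mice, the second of which was shallow, with a median of 992.5 UMIs per kept cell.

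Mouse blood holds classical monocytes, which carry high Ly6C and the chemokine receptor CCR2 and enter inflamed tissue, and non-classical or patrolling monocytes, which carry low Ly6C and high CX3CR1 and crawl along the vessel wall. Patrolling monocytes arise from classical monocytes, depend on the orphan nuclear receptor NR4A1 and on C/EBPβ, and clear debris from the endothelium. Cd300e encodes an activating immune receptor of the CD300 family and Treml4 a TREM-like receptor that binds dying cells, and both are used as markers of these monocytes in the mouse.

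The 2 gate genes and the 3 other naming markers lie at separate loci of GRCm38 (GENCODE M21). Cd300e spans chr11:115051917-115062177 on the minus strand and Treml4 spans chr17:48264295-48275360 on the plus strand. The ribonuclease gene Ear2 spans chr14:44102654-44103534 on the plus strand, Spn, which encodes the sialomucin CD43, spans chr7:127132232-127137823 on the minus strand, and Cx3cr1, the fractalkine receptor, spans chr9:119901616-120069879 on the minus strand. Promoter windows from 250 bases before to 50 bases after the RefSeq start, which for Cd300e lies inside the GENCODE span and for Treml4 and Ear2 is its first base, are shown for the gate genes, which define the cells, and for Ear2, the most abundant of the other naming markers. They are RefSeq sequence of GRCm38.p6 on the strand of each gene, chr11:115061990-115062289 for Cd300e, chr17:48264045-48264344 for Treml4 and chr14:44102404-44102703 for Ear2, and capitals mark a match to the C/EBP core.
Cd300e: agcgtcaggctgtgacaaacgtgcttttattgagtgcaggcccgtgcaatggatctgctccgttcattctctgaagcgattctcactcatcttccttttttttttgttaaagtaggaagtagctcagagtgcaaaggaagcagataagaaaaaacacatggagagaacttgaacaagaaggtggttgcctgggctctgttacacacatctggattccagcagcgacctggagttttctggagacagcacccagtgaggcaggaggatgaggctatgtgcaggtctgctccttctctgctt
Treml4: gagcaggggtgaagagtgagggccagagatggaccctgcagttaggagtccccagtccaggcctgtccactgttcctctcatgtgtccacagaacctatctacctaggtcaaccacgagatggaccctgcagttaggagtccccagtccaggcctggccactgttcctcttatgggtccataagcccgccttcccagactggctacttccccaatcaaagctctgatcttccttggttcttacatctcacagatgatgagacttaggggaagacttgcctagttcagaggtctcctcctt
Ear2: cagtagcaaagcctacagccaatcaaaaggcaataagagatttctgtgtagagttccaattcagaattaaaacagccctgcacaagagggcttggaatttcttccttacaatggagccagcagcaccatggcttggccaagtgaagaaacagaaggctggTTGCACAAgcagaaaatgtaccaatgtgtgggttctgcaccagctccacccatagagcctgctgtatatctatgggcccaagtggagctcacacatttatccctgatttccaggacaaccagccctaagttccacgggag
Both strands of 12 such windows, from 11 patrolling monocyte genes, were searched for 4 short motifs. The C/EBP core TTGCNNAA was in 2 windows, as TTGCACAA at position -90 from the start of Ear2 and as TTAGGCAA at position -46 of Adgre4, and in 10.8% of all 32544 windows of that length. The PU.1 core GAGGAAG was in 2 windows, those of Ace and Adgre4, against 13.4% of all windows. The NR4A element AAAGGTCA, found in 1.52% of all windows, and the KLF core CCACACCC, found in 3.57%, were in 0 of the 12. A match is a run of letters only, and its absence from these windows says nothing about the factor.

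Patrolling monocytes made up between 6.81% and 24.8% of the liver cells of the NASH mice. In the HFD+F+CCl4 mice 761, 745 and 2646 cells gave shares of 6.81%, 7.36% and 24.8%. The WD+F+CCl4 mice held 838, 1207 and 1206 cells, or 6.98%, 12.3% and 10.3%. HFD+F+CCl4 replicate 3 stood far above the other NASH mice, which ranged from 6.81% to 12.3%. The same gate took 47 cells in the first control mouse, a share of 0.436% (exact 95% interval 0.320% to 0.579%), and 5 in the second, a share of 0.120% (0.0390% to 0.280%). All NASH shares exceeded both control shares, as the rule states, and the intervals cover counting error only. With every cell thinned to 2000 UMIs, to hold depth equal, and shallower cells left out, the NASH mice averaged 10.6% and the control mice 0.309%.

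**Figure D1:**
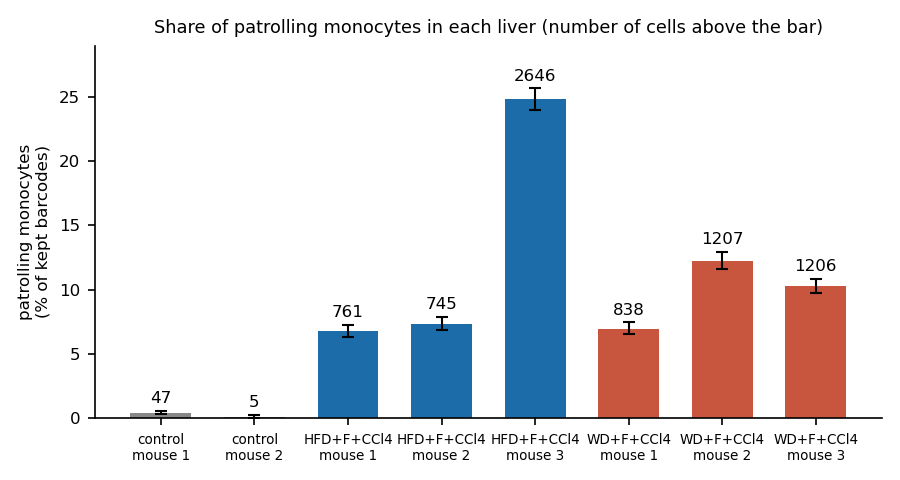
Share of patrolling monocytes among kept barcodes in each of the 8 livers, in percent, with exact 95% binomial intervals and the number of cells above each bar. The 6 NASH livers lie between 6.81% and 24.8%, with HFD+F+CCl4 mouse 3 highest, and both control livers lie under 0.5%.

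The difference in share between the models was within the spread of the mice. The mean was 9.85% ± 2.67 (SD, n = 3) in WD+F+CCl4 mice, and its difference from HFD+F+CCl4 mice, whose SD was 10.3 percentage points (n = 3), was -3.16 percentage points (exact two-sided permutation test, p = 0.9, where 0.1 is the smallest p that 3 against 3 mice allow). The sign rested on 1 animal, since without HFD+F+CCl4 replicate 3 the HFD+F+CCl4 mean was 7.08% ± 0.390 (SD, n = 2) and the difference 2.76 percentage points (exact permutation p = 0.4).

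The cells that the gate took in the first control mouse differed in part from those of the NASH mice. In the first control mouse 12 of the 47 cells (25.5%) held UMIs of Xcr1, Clec9a or Flt3, which mark type 1 dendritic cells and their kin, against 2.99% to 4.65% of the patrolling monocytes of the NASH mice. Of those 47 cells 35 held Treml4 and no Cd300e. In the sum of all 47 the hepatocyte albumin transcript Alb stood at 1844 CPM (UMIs of a gene per 1000000 UMIs). Of the 5 cells in the other control mouse 0 held Xcr1, Clec9a or Flt3, 1 held Treml4 and no Cd300e, and 3 held both gate genes. With so few cells in that mouse, genes of patrolling monocytes were not tested between NASH and control. In whole kept livers Cd300e stood at 1.23 and 1.88 CPM in the control mice and between 56.7 and 185 CPM in the NASH mice, and Treml4 at 11.2 and 19.0 CPM against 84.5 to 183 CPM.

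The members were not uniform in the gate genes themselves. Both genes were detected in 4825 cells (65.2%), Cd300e alone in 1224 (16.5%) and Treml4 alone in 1354 (18.3%), while 1975 cells (26.7%) sat at the limit of 2 UMIs and 2896 held at least 5. Summed over the cells of each mouse, Cd300e stood at 634, 699 and 681 CPM in the HFD+F+CCl4 mice and 492, 481 and 747 CPM in the WD+F+CCl4 mice. Treml4 stood at 625, 530 and 532 CPM and at 513, 614 and 705 CPM, so both genes overlapped between the models.

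Cells with Treml4 alone held more classical monocyte transcripts than cells with Cd300e alone. Of 28 genes outside the gate that were compared, 4 were higher in the Treml4-only cells of all 6 NASH mice (Ccr2, Chil3, F13a1 and Ly6c2) and 6 were lower in all 6 (Cd9, Cx3cr1, Ear2, Eno3, Pecam1 and Spn). Ly6c2, the surface mark of classical monocytes, averaged 315 ± 202 CPM in Treml4-only cells, 60.6 ± 58.8 CPM in Cd300e-only cells and 87.9 ± 81.4 CPM in cells with both (mean ± SD, n = 6 mice). Ear2 ran the other way, with 924 ± 119.6, 1738 ± 479 and 1777 ± 394 CPM in the same order. These classes were cut from the gate genes, so the values are a description. They also share their 6 mice and differ in the number of UMIs that put a cell in a class.

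Around the limit of the gate the levels shifted by steps. Cells just inside, with exactly 2 UMIs of Cd300e and Treml4, averaged 529 CPM of Spn, and the 3190 cells just outside, with 1 UMI and otherwise the same rule, averaged 296 CPM. Cd74, the invariant chain of MHC class II, averaged 4893 CPM just inside and 8045 CPM just outside. Cells with at least 5 UMIs averaged 942 CPM of Spn and 1949 CPM of Cd74. Another 4285 cells passed the Cd300e and Treml4 limit and the other limits, and were left out only for UMIs of Gpnmb or Trem2. These averaged 369.7 CPM of Spn and 1402 CPM of the complement gene C1qb.

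To see which genes set patrolling monocytes apart, their UMIs were summed in each mouse and compared with 2 other cell classes of the same livers. Classical monocytes were cells with at least 2 UMIs of Ly6c2, UMIs of Ccr2 and Csf1r and none of Cd300e, Treml4, Flt3 or Siglech, with the other limits of the patrolling gate, and numbered 816 (24, 46 and 132 over the HFD+F+CCl4 mice, 231, 261 and 122 over the WD+F+CCl4 mice). Trem2 Gpnmb macrophages were cells with at least 2 UMIs of those genes together and none of Cd300e or Treml4, 9371 in all. Both comparisons used the same patrolling sums, with the mouse as a block (n = 6 mice each). The genes of the gates were left out, yet genes that vary with them from cell to cell were selected along with them. Against classical monocytes edgeR's quasi-likelihood test with Benjamini-Hochberg adjustment called 22.4% of 9322 genes higher and 17.6% lower, and against Trem2 Gpnmb macrophages 26.3% of 12062 genes higher and 27.8% lower. The balance of directions moved with the settings. Higher genes were 56.0% of the calls against classical monocytes, from 48.1% without HFD+F+CCl4 replicate 1 to 63.8% with library size as the only scaling, and 48.7% against the macrophages, from 42.3% with no filter beyond 1 count to 57.8% with library size only. Against classical monocytes lower genes were also the larger part in cells with at least 3 UMIs of the gate genes (1860 of 3659), with both gate genes (1916 of 3781) and with no UMI of Xcr1, Clec9a or Flt3 (1888 of 3754).

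Markers that the gate did not use were high in the gated cells. All 21 patrolling monocyte markers outside the gate were higher than in classical monocytes (median log2 fold change 2.02, all genes 0.07), and all 21 were higher than in Trem2 Gpnmb macrophages (median 2.68, all genes -0.02). Spn had lowest, median and highest levels over the mice of 583, 738 and 978 CPM in patrolling and 75.4, 87.1 and 152 CPM in classical monocytes, a log2 fold change of 2.85 (SE 0.10, adjusted p = 1.01e-15). Ear2 had 1234, 1530.3 and 2019 CPM against 116, 178 and 269 CPM, a log2 fold change of 3.17 (SE 0.12, adjusted p = 3.86e-15). For both genes every patrolling sum lay far above every classical sum. Cx3cr1 differed less, with 729.6, 873 and 1056 CPM against 275, 531 and 559.9 CPM, a log2 fold change of 0.81 (SE 0.09, adjusted p = 1.59e-07), and the sums still did not overlap. Against Trem2 Gpnmb macrophages, at 558 ± 187 CPM (SD, n = 6), its log2 fold change was 0.61 (adjusted p = 0.0031), a call that was lost without the block (adjusted p = 0.0704). Reads of Ear2 may be shared with near-identical Ear genes.

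In single cells thinned to 2000 UMIs, the share that held a marker differed from gene to gene. Ear2 was found in 78.4%, 84.8% and 87.8% of cells in the lowest, median and highest mouse, Spn in 59.3%, 70.4% and 79.4%, and Cx3cr1 in 72.0%, 76.9% and 82.6%, while Eno3, the muscle enolase gene, was found in 40.6%, 46.2% and 54.8%. T cells, gated by Cd3e, served as a background for free RNA: they held Ear2 in 2.74%, Cx3cr1 in 9.34% and Spn, which T cells express, in 38.6% of thinned cells (medians over mice). The monocyte and macrophage gene Csf1r was found in 0% of these T cells in every NASH mouse. This background thus leaves out T cells with that transcript and may be too low for myeloid genes. Ace, the angiotensin-converting enzyme, was found in 59.1% of patrolling monocytes and 1.08% of T cells, and the adhesion receptor gene Adgre4 in 70.0% and 2.36%. Unthinned medians in patrolling monocytes were 89.5% for Ear2, 79.4% for Spn, 86.8% for Cx3cr1 and 70.3% for Ace. Thinning left out 1241 of the 7403 patrolling monocytes and 807 of 3427 T cells as too shallow. Median UMIs per cell ran from 2480 to 3139 in patrolling monocytes and from 2266 to 3106 in T cells of the NASH mice. Alb was found in 11.7% and 11.4% of thinned patrolling monocytes and T cells. The 9 hepatocyte markers together summed to between 233 and 1100.1 CPM in patrolling monocytes and between 149 and 1196 CPM in T cells.

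**Figure D2:**
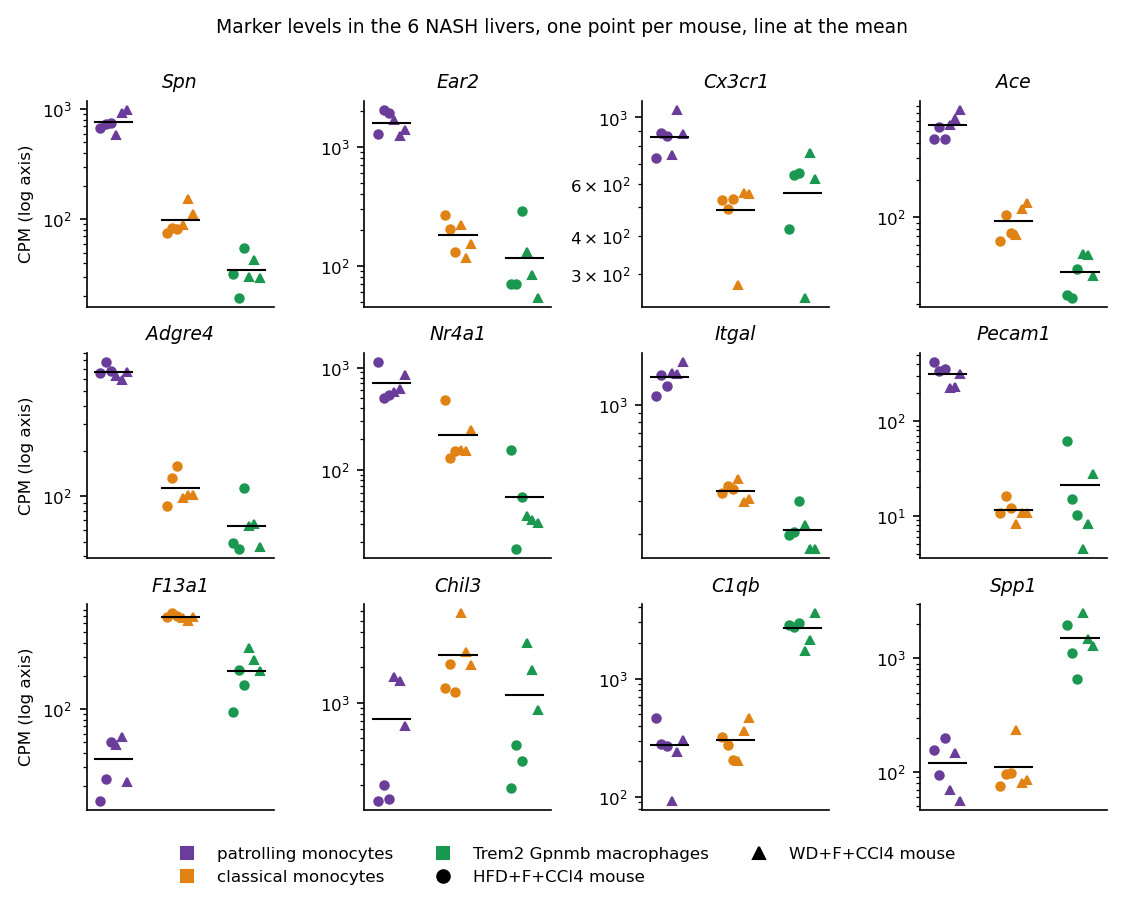
Levels of 12 genes in CPM on log axes in patrolling monocytes, classical monocytes and Trem2 Gpnmb macrophages, with 1 point per NASH mouse and a line at the mean. Patrolling sums lie above both other classes for Spn, Ear2, Ace, Adgre4, Nr4a1, Itgal and Pecam1, below the classical sums for F13a1 and below the macrophage sums for C1qb and Spp1.

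Against classical monocytes the 10 largest rises by the naming rule were Slc12a2, Tmem26, Adrb1, Pdcd1lg2, Ikzf3, Pecam1, Jade2, Dusp16, Lilra5 and Bcl2a1a. Slc12a2, a sodium-potassium-chloride cotransporter, stood at 167 ± 10.3 CPM against 1.87 ± 2.19 CPM in classical monocytes, a log2 fold change of 5.98 (SE 0.23, adjusted p = 4.32e-15, higher in 6 of 6 mice). Pecam1, which encodes the endothelial and leukocyte adhesion molecule CD31 (chr11:106654217-106750628, minus strand), had 223, 328 and 424 CPM in the lowest, median and highest mouse against 8.17, 10.8 and 16.1 CPM, a log2 fold change of 4.63 (SE 0.13, adjusted p = 9.78e-17). The classical sums of both genes were low in every mouse, and the 816 classical cells held between 6 (Ikzf3) and 13 (Jade2) UMIs of Slc12a2, Tmem26, Adrb1, Pdcd1lg2, Ikzf3 and Jade2, so the size of these folds rests on few molecules. The other log2 fold changes were 4.99 for Tmem26, 4.86 for the beta-1 adrenergic receptor gene Adrb1, 4.81 for Pdcd1lg2, which encodes the PD-1 ligand PD-L2, and 4.81 for the lymphoid transcription factor gene Ikzf3. They were 4.50 for Jade2, 4.08 for the MAP kinase phosphatase gene Dusp16, 3.95 for the receptor gene Lilra5 and 3.89 for the survival gene Bcl2a1a, whose reads may be shared with other Bcl2a1 copies. Cd274, which encodes the other PD-1 ligand, PD-L1, was also higher, at 144 ± 21.9 against 15.7 ± 9.21 CPM (log2 fold change 3.25).

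Among the 10 largest falls were F13a1, Vcan, Fn1, Mmp8, S100a10, Hopx, Chil3, Slfn1 and Ifi27l2a. F13a1, the A subunit of coagulation factor XIII, stood at 35.5 ± 17.4 CPM against 687 ± 34.2 CPM (log2 fold change -4.31, SE 0.18, adjusted p = 1.19e-14, lower in 6 of 6 mice). The matrix genes Vcan (versican) and Fn1 (fibronectin) had log2 fold changes of -3.73 and -3.37, with Fn1 at 139.5 against 1375 CPM. Chil3, a secreted chitinase-like protein, was -2.32 on the log2 scale but varied widely, with 147, 421 and 1659.8 CPM in the lowest, median and highest patrolling sum and 1233, 2109 and 5770.4 CPM in the classical sums, so the 2 classes overlapped across mice while each mouse showed the fall. The neutrophil collagenase gene Mmp8 (-3.05), S100a10 (-2.72), Hopx (-2.55), Slfn1 (-2.26) and Ifi27l2a (-2.21) were also among them. Of 13 classical monocyte markers tested outside the gates, 10 were lower, Hp and Gda were not called and 1 was higher, Clec4e, a receptor for dead cells and mycobacterial lipid (415 against 157 CPM, log2 fold change 1.30). The median of the 13 was -2.16.

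Most genes of adhesion, rolling and egress were higher. Against classical monocytes 10 of 15 tested members were higher, 4 lower and 1 not called (median 1.10), and against Trem2 Gpnmb macrophages 12 of 17 were higher, 2 lower and 3 not called (median 1.21). Over all genes 22.4% and 26.3% were higher in these comparisons, and 17.6% and 27.8% lower. Itgal, the alpha chain of LFA-1, on which crawling along the vessel wall depends, stood at 1114, 1459 and 1702 CPM in patrolling and 298, 341 and 395 CPM in classical monocytes in the lowest, median and highest mouse, with no overlap (log2 fold change 2.02). Its partner Itgb2 had a log2 fold change of 1.10. S1pr5, the sphingosine-1-phosphate receptor needed for exit of these monocytes from bone marrow, stood at 121 against 10.0 CPM (log2 fold change 3.53). Selplg and Itgam were among the lower members, and the call of Itgam was lost without the block (adjusted p = 0.0653).

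Transcription factors and survival genes were higher more often than lower. Of 18 members tested against classical monocytes 9 were higher, 2 lower and 7 not called (median 0.40), and of 20 against Trem2 Gpnmb macrophages 14 were higher, 4 lower and 2 not called (median 0.80). The shares over all genes were 22.4% and 26.3% higher, and 17.6% and 27.8% lower. Nr4a1 (chr15:101254269-101274795, plus strand) had 504, 595 and 1138 CPM in patrolling and 132, 155 and 485 CPM in classical monocytes in the lowest, median and highest mouse, a log2 fold change of 1.74 (SE 0.09, adjusted p = 2.78e-13). The highest value was that of HFD+F+CCl4 replicate 1, the mouse in which 13 immediate early genes, known to respond to tissue dissociation, summed to 9416 CPM against 1476 to 4226 CPM in the other NASH mice. Without that mouse the log2 fold change of Nr4a1 was 1.76. The immediate early genes themselves split 7 higher, 3 lower and 3 not called, and without the block 0 of the 13 were called. Cebpb stood at 1789 against 868 CPM (log2 fold change 1.00), Pou2f2 had 1.69, and the Krüppel-like factor genes Klf2 and Klf4 had 0.84 and 1.03. Bcl2, which holds back apoptosis, stood at 152 against 15.2 CPM (log2 fold change 3.34), and the pro-apoptotic Bcl2l11 was lower, a call lost without the block (adjusted p = 0.0833).

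Receptors for IgG split by type. Fcgr4, the activating receptor known from patrolling monocytes, was higher (508 ± 82.3 against 170.1 ± 63.6 CPM, log2 fold change 1.55), as was the shared signalling chain Fcer1g, while Fcgr1, the high-affinity receptor, was lower (54.3 ± 20.3 against 237 ± 79.3 CPM, log2 fold change -2.21). Fcgr3 and Fcgr2b were lower too, which gave 2 higher and 3 lower of 5 tested. Against Trem2 Gpnmb macrophages 2 of 6 were higher, again Fcgr4 (0.55) and Fcer1g (0.44), and 4 were lower. Over all genes 22.4% were higher and 17.6% lower in the first comparison and 26.3% and 27.8% in the second. The 2 higher of 6 are not far from the latter share of higher genes.

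Interferon-stimulated genes were lower in both comparisons. All 17 members tested were lower than in classical monocytes (median -1.52) and all 18 were lower than in Trem2 Gpnmb macrophages (median -1.68). Over all genes 17.6% were lower in the first comparison and 27.8% in the second. Isg15, a ubiquitin-like modifier, stood at 12.4, 19.8 and 30.8 CPM in patrolling and 53.9, 62.1 and 92.3 CPM in classical monocytes in the lowest, median and highest mouse (log2 fold change -1.73), and the antiviral genes Ifit2 and Ifit3 had log2 fold changes of -1.87 and -1.85. The summed list stood at 2606, 2366 and 2388 CPM in the patrolling monocytes of the HFD+F+CCl4 mice and 4688, 3361 and 2665 CPM in those of the WD+F+CCl4 mice, against 4933, 5478 and 4194 CPM and 6749.6, 5455 and 4831 CPM in classical monocytes, lower in 6 of 6 mice. Most of these sums was 1 gene, Ly6e, with a mean of 2201 of 3012 CPM in patrolling and 3344 of 5274 CPM in classical monocytes. All 3 gates allowed at most 2 UMIs of the interferon targets Cxcl9 and Cxcl10, and the calls of Rsad2 and Ifi44 against classical monocytes were lost without the block (adjusted p = 0.182 and 0.157).

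Inflammatory genes went both ways. Of 15 cytokine and inflammasome genes tested 7 were higher than in classical monocytes, 4 lower and 4 not called (median 0.52), and without the block the counts were 4 and 3. Over all genes, with the block, 22.4% were higher and 17.6% lower, and the counts without the block are not far from these shares. Il10, the anti-inflammatory cytokine, stood at 12.0, 17.2 and 35.9 CPM in the lowest, median and highest patrolling sum against 2 UMIs in all classical cells, a ratio of 42.9 (95% counting interval 11.8 to 355), and was also higher than in Trem2 Gpnmb macrophages (2.59). Il1b stood at 234 ± 58.2 against 86.4 ± 44.1 CPM (log2 fold change 1.54), and Tnfaip3, which damps NF-κB signalling, had 1.53. Il18, Ccl6, Ccl9 and Nlrp3 were the members lower than in classical monocytes. Nlrp3 lost its call there under 6 of the alternatives tried, and Ccl4, among the higher, under 5. Relative to the macrophages 7 of 15 were higher, 6 lower and 2 not called (median 0.40), with Nlrp3 higher and Ccl4 lower. In that comparison 26.3% of all genes were higher and 27.8% lower.

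**Figure D3:**
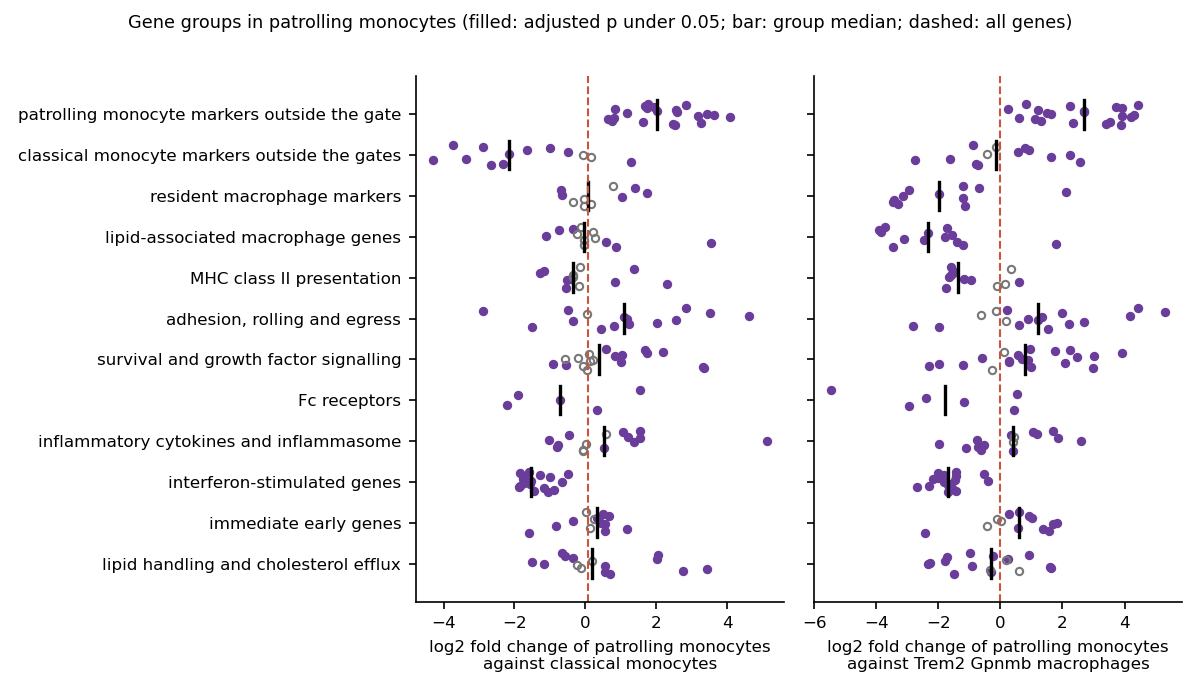
Log2 fold changes of patrolling monocytes against classical monocytes (left) and Trem2 Gpnmb macrophages (right), with 1 point per gene and 1 line of points per gene group (filled where the adjusted p is under 0.05, a bar at the median of the group, a dashed line at the median of all genes). Interferon-stimulated genes lie left of both dashed lines and patrolling markers right of both, while macrophage groups lie near the line on the left panel and left of it on the right panel.

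Against Trem2 Gpnmb macrophages the largest rises by the rule were S1pr5, Slc12a2, Spn, Eno3, L1cam, Smpdl3b, Dusp16, Pecam1, Adrb1 and Nr4a1. S1pr5 stood at 121 ± 18.2 against 2.97 ± 1.18 CPM (log2 fold change 5.31, SE 0.14, adjusted p = 3.82e-09), and L1cam, a neural and leukocyte adhesion molecule, at 116 against 5.58 CPM (4.26). Slc12a2, Dusp16, Pecam1 and Adrb1 were named by the rule in both comparisons, which used the same patrolling sums. The log2 fold change was 3.91 for Nr4a1, 4.29 for the enolase gene Eno3 and 4.24 for the membrane sphingomyelinase-like gene Smpdl3b. The largest falls were Pf4, Syngr1, C3ar1, Itga6, Emp1, Slc37a2, Ms4a7, Mmp12, Spp1 and Ccl2. The chemokine gene Pf4 stood at 7.90 ± 6.43 against 297 ± 181 CPM (-5.38), the complement receptor gene C3ar1 at 21.2 against 493 CPM (-4.65), and Spp1, osteopontin, at 56.3, 121 and 199 against 662, 1384 and 2489 CPM in the lowest, median and highest mouse (-3.73, adjusted p = 1.31e-05). Every macrophage sum of Spp1 lay above every patrolling sum. These gates take Trem2 and Gpnmb in opposite directions, so genes that vary with them from cell to cell were selected along with them. How far that choice accounts for these falls was not tested.

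Macrophage and antigen presentation genes were low relative to the macrophages, where 27.8% of all genes were lower and 26.3% higher. Of 13 lipid-associated macrophage genes 12 were lower and 1 higher than in Trem2 Gpnmb macrophages (median -2.34), whereas against classical monocytes 3 of 12 were higher, 3 lower and 6 not called (median -0.04), counts not far from the 22.4% and 17.6% of all genes. The 1 higher in both was the tetraspanin gene Cd9, at 439.6, 678 and 911 CPM in patrolling and 21.3, 56.9 and 86.2 CPM in classical monocytes in the lowest, median and highest mouse (log2 fold change 3.56, and 1.78 against the macrophages). Of 11 resident macrophage markers 10 were lower than in Trem2 Gpnmb macrophages and 1, the scavenger receptor gene Marco, was higher (median -1.98), a call lost without the block (adjusted p = 0.24). Of 12 MHC class II genes 8 were lower and 1, the costimulatory gene Cd86, higher than in the macrophages (median -1.35), with Cd74 at 3069 ± 989 against 10165 ± 4143 CPM, and the call of Cd86 was lost without the block (adjusted p = 0.0844). Against classical monocytes 3 were higher, 5 lower and 4 not called (median -0.36), and Cd74 (-0.54) lost its call without the block (adjusted p = 0.0974). The 3 higher of 12 stand near the 22.4% of all genes called higher there, while 17.6% of all genes were called lower.

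Among genes of lipid handling, 7 of 15 were higher than in classical monocytes, 5 lower and 3 not called (median 0.18). Over all genes 22.4% were higher and 17.6% lower. The fatty acid carrier gene Fabp4 stood at 363 ± 100.5 against 33.2 ± 29.5 CPM (log2 fold change 3.43), the fatty acid receptor gene Cd36 had 2.77, and the lipid-sensing nuclear receptor genes Pparg and Nr1h3 (LXRα) had 2.06 and 2.02. Relative to the macrophages 4 of 16 were higher, 9 lower and 3 not called (median -0.31), so the higher members were near the 26.3% of all genes called higher, while 27.8% of all genes were called lower. There Fabp4 (1.63) was higher, and the lipoprotein lipase gene Lpl (-2.34) and the cholesterol efflux pump gene Abca1 (-1.48) lower.

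A list of 13 genes was drawn from those named in the study, some for its monocytes, macrophages and dendritic cells together and some for cultured cells. Part of them were picked on these samples, so the list is not independent evidence. Against classical monocytes 4 of 12 tested were higher, namely the gelatinase gene Mmp9, the cytokine suppressor gene Socs3, the formin gene Fmnl1 and the myosin gene Myh9, 3 lower, namely the lysosomal genes Psap and Lamp1 and the small GTPase gene Rac1, and 5 not called (median 0.11). Mmp9 lost its call without the block (adjusted p = 0.342). In the other comparison the same 4 were higher, 5 lower and 4 not called (median -0.05). Over all genes 22.4% were higher and 17.6% lower in the first comparison and 26.3% and 27.8% in the second, not far from these counts.

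Transcripts of other cells were present at levels that varied by mouse. The 9 neutrophil markers summed to 1673, 2238 and 3834 CPM in the patrolling monocytes of the HFD+F+CCl4 mice and 7669.6, 4747 and 725 CPM in those of the WD+F+CCl4 mice, with S100a9 most abundant on average. The 9 hepatocyte markers summed to 989, 1100.1 and 345 CPM against 644, 233 and 291 CPM, with Alb most abundant. The 5 red cell genes summed to 3.14, 3046 and 3751 CPM against 39.0, 105 and 675 CPM. Neutrophil and red cell sums thus spread over a wide range within each model, and 0 markers of these 3 lists were at 0 over the 6 mice together. The 10 T and NK cell markers stayed between 15.3 and 53.2 CPM and the 8 type 1 dendritic cell markers between 74.5 and 159 CPM. The 8 endothelial markers summed to 355, 61.4 and 42.5 CPM in the HFD+F+CCl4 mice and 4.81, 28.1 and 549 CPM in the WD+F+CCl4 mice, with Ptprb most abundant on average, and in T cells to 462, 75.8 and 9.35 and 6.66, 7.44 and 384 CPM. These sums were high in the same 2 mice in both cell classes. Against classical monocytes 3 of 4 tested endothelial markers were higher (Ptprb, Cdh5 and Egfl7), and all 3 calls were lost with no block and with DESeq2. In WD+F+CCl4 replicate 1, which had the lowest endothelial sum, Pecam1 stood at 223 CPM in patrolling and 8.17 CPM in classical monocytes. Against classical monocytes, where 5 of the neutrophil markers could be tested, 1 was higher (Cxcr2, lost without the block, adjusted p = 0.563), and 6 of 8 hepatocyte markers were higher and 1 lower. Of these hepatocyte calls all but that of Apoa2 were lost without the block, and those of Mup20 and Serpina1c were lost under 8 alternatives each. Over all genes 22.4% were higher and 17.6% lower than in classical monocytes. Relative to Trem2 Gpnmb macrophages 5 of 8 neutrophil markers were higher and 3 not called (median 1.03). These 5 were Retnlg, Cxcr2, S100a9, S100a8 and Csf3r. Over all genes 26.3% were higher and 27.8% lower there. Of 9 hepatocyte markers 0 were higher and 1 lower in that comparison. The role of these transcripts in the differences between cell classes was not tested.

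Between the 2 models, 0.0% of 11243 genes of patrolling monocytes were called in either direction by edgeR's quasi-likelihood test with Benjamini-Hochberg adjustment (0 genes, with 643 at an unadjusted p under 0.05), while DESeq2 called 37, or 0.33%. Log2 fold changes of WD+F+CCl4 over HFD+F+CCl4 were -0.27 for Ear2, 0.22 for Spn and 0.13 for Cx3cr1 (SE 0.22, 0.21 and 0.17), and the mice of the models overlapped in each of these markers. Ace stood at 434, 539 and 435 CPM in the HFD+F+CCl4 mice and 559, 630.3 and 736 CPM in the WD+F+CCl4 mice, without overlap (log2 fold change 0.47, SE 0.15, adjusted p = 0.807). The 5 genes of lowest p were Ltb4r1, Chil3, Cd63, Abca1 and Ifitm6. The mice of the models did not overlap in any of them, which the choice by p makes likely, so it adds no evidence. Over all genes the models did not overlap in 5.03% in the higher direction and 5.73% in the lower.

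Ltb4r1, the leukotriene B4 receptor of migrating leukocytes (chr14:55765962-55768494, plus strand), stood at 24.7, 25.4 and 20.3 CPM in the HFD+F+CCl4 mice and 53.4, 59.6 and 50.5 CPM in the WD+F+CCl4 mice (log2 fold change 1.25, SE 0.13, adjusted p = 0.139). Chil3 (chr3:106147554-106167564, minus strand) stood at 147, 201 and 151 CPM against 1659.8, 1529 and 641 CPM (log2 fold change 2.96, SE 0.36, adjusted p = 0.139). The WD+F+CCl4 values of Chil3 were several times the HFD+F+CCl4 values but ranged widely. Without WD+F+CCl4 replicate 3, Chil3 was called, the 1 gene called in that fit, and without cells ranked as doublets 7 genes were called, 5 higher (Abca1, Ifitm6, Ltb4r1, Serpinb10 and Chil3) and 2 lower (Cd63 and Serpina1c). Chil3 was also higher in the WD+F+CCl4 mice in other cells, with a ratio of WD+F+CCl4 to HFD+F+CCl4 means of 7.67 in patrolling monocytes, 2.25 in classical monocytes and 6.38 in Trem2 Gpnmb macrophages. As a background for free RNA, Chil3 stood at 5.87, 41.7 and 8.06 CPM in T cells of the HFD+F+CCl4 mice and 51.5, 39.2 and 21.1 CPM in those of the WD+F+CCl4 mice, with overlap, and at 19.1, 23.3 and 9.45 CPM against 107, 54.5 and 25.7 CPM in B cells, without overlap. Csf1r was found in 0% of both the T cells and the B cells, so these backgrounds may be too low for myeloid genes. Ifitm6, an interferon-induced membrane protein gene of monocytes, stood at 93.8, 142 and 109.6 CPM against 280.1, 254 and 265 CPM (log2 fold change 1.22, adjusted p = 0.159). In Trem2 Gpnmb macrophages the models overlapped for both genes, with Ltb4r1 at 12.3, 11.6 and 21.4 CPM against 39.8, 31.3 and 21.1 CPM and Ifitm6 at 24.6, 52.4 and 91.4 CPM against 235, 124 and 84.8 CPM, and they overlapped in classical monocytes too, with ratios of WD+F+CCl4 to HFD+F+CCl4 means of 1.19 and 1.07. The interaction of model and cell class in edgeR's test called Ifitm6 against classical monocytes (log2 difference 1.14, adjusted p = 3.39e-05) but not Ltb4r1 (log2 difference 0.99, adjusted p = 0.0791), and called neither against the macrophages (log2 difference -0.20, adjusted p = 0.954 for Ifitm6 and log2 difference 0.22, adjusted p = 0.928 for Ltb4r1). Cd63, a tetraspanin of late endosomes, stood at 57.4, 57.9 and 73.2 CPM in the HFD+F+CCl4 mice and 21.8, 23.6 and 28.4 CPM in the WD+F+CCl4 mice (log2 fold change -1.35, adjusted p = 0.139). Its ratio of HFD+F+CCl4 to WD+F+CCl4 means was 2.56 in patrolling monocytes, 2.12 in Trem2 Gpnmb macrophages and 2.23 in B cells. In classical monocytes Cd63 stood at 21.5, 64.2 and 20.3 CPM against 16.3, 10.1 and 15.2 CPM, with the mean of the first group raised by HFD+F+CCl4 replicate 2 (46 cells). In T cells it stood at 39.1, 23.3 and 22.6 CPM against 6.06, 6.76 and 20.3 CPM, with WD+F+CCl4 replicate 3 far above the other WD+F+CCl4 mice.

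Some genes of cholesterol balance stood apart between the models without reaching the threshold of edgeR. The list of lipid handling and cholesterol efflux genes, which holds Abca1 and Abcg1, had a median log2 fold change of 0.10 (all genes 0.00). Of its 15 tested members edgeR called 0, with 4 at an unadjusted p under 0.05. The models did not overlap in 3 higher and 2 lower members (5.03% and 5.73% of all genes). Abca1, the pump that exports cholesterol (chr4:53030787-53159895, minus strand), stood at 64.6, 61.0 and 52.2 CPM in the HFD+F+CCl4 mice and 109, 123 and 149.8 CPM in the WD+F+CCl4 mice (log2 fold change 1.13, SE 0.14, adjusted p = 0.139), and its relative Abcg1 stood at 164, 209 and 135 CPM against 317, 255 and 261 CPM (log2 fold change 0.74, adjusted p = 0.549). In other cells the models overlapped for Abca1, with 275, 252 and 140.1 CPM against 183, 285 and 299 CPM in Trem2 Gpnmb macrophages and 43.1, 56.2 and 35.1 CPM against 53.1, 89.8 and 60.9 CPM in classical monocytes. Abcg1 did not overlap in the macrophages, at 216, 261 and 157 CPM against 301, 294 and 290 CPM. It overlapped in classical monocytes, at 172, 148 and 63.5 CPM against 160, 193 and 190 CPM. The interaction of model and cell class, by edgeR, did not call Abca1 against classical monocytes (log2 difference 0.41, adjusted p = 0.951) or macrophages (log2 difference 0.85, adjusted p = 0.734). In patrolling monocytes the direction was opposite to that of Abca1 for a list of 17 genes of sterol synthesis and its control, which was chosen after such values had been seen and gets no test. Of 16 measured, 15 had lower values in the WD+F+CCl4 mice, 13 of them without overlap between the models (5.73% of all genes), the median log2 fold change was -0.86 against 0.00 for all genes, and 0 were called with 12 at an unadjusted p under 0.05. Sqle, squalene epoxidase, stood at 9.42, 4.30 and 11.6 CPM against 0.848, 1.23 and 1.55 CPM (log2 fold change -2.79, adjusted p = 0.322), and Cyp51, lanosterol demethylase, at 19.3, 18.4 and 26.0 CPM against 7.07, 6.76 and 9.31 CPM (-1.47, adjusted p = 0.28). DESeq2 called Sqle, Cyp51 and the isomerase gene Idi1 lower and Abca1 and Abcg1 higher.

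The sterol genes had the same direction between the models in other cells of these livers. Their summed level was 299.7, 257 and 316 CPM in the patrolling monocytes of the HFD+F+CCl4 mice and 168, 163 and 171 CPM in those of the WD+F+CCl4 mice, without overlap, and the ratio of HFD+F+CCl4 to WD+F+CCl4 means was 1.74. It was 2.01 in classical monocytes, 1.87 in Trem2 Gpnmb macrophages, 1.91 in B cells and 1.20 in T cells. Hepatocytes make these transcripts too, and the 9 hepatocyte markers had a median log2 fold change of -1.78 between the models in patrolling monocytes, with 0 called by edgeR, 7 at an unadjusted p under 0.05 and 4 lower without overlap. DESeq2 called 3 of them lower, Alb (-2.62, adjusted p = 0.0347), Serpina1c (-2.08, adjusted p = 0.000249) and Ttr (-1.80, adjusted p = 3.8e-05). Alb stood at 376, 473 and 114 CPM and 34.2, 36.1 and 82.9 CPM in patrolling monocytes and at 423, 450.3 and 59.0 CPM and 15.8, 15.6 and 95.1 CPM in T cells, the HFD+F+CCl4 mice first. HFD+F+CCl4 replicate 3 had the lowest Alb and the highest sterol sum of the HFD+F+CCl4 patrolling monocytes. In the other model WD+F+CCl4 replicate 3 had the highest Alb (82.9 CPM) and also the highest sterol sum (171 CPM). The role of hepatocyte RNA in the sterol values was not tested.

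**Figure D4:**
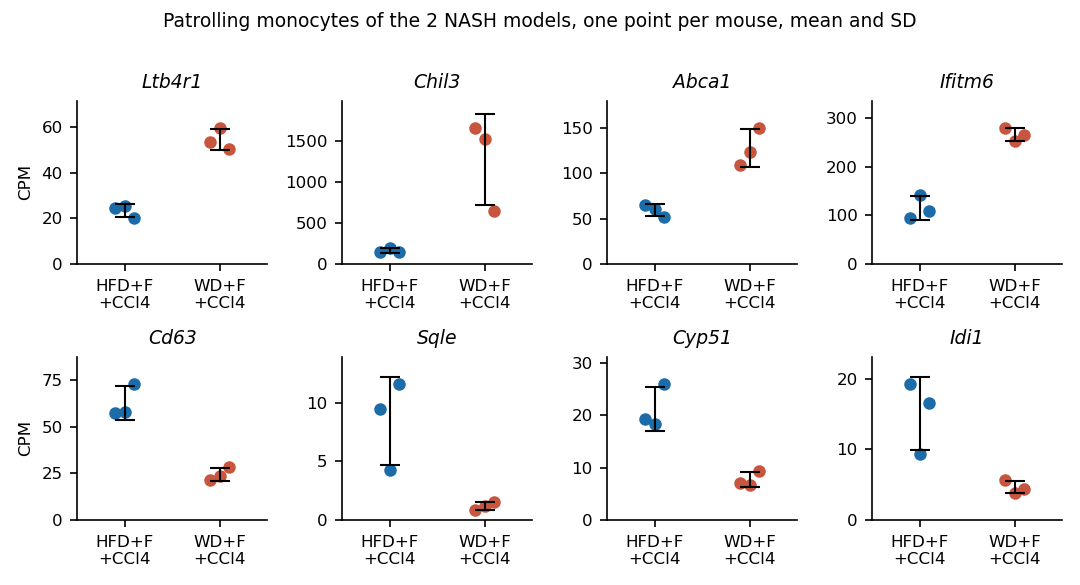
Levels in CPM of 8 genes in the patrolling monocytes of the 3 HFD+F+CCl4 and 3 WD+F+CCl4 mice, with 1 point per mouse and the mean and SD. Ltb4r1, Chil3, Abca1 and Ifitm6 are higher and Cd63, Sqle, Cyp51 and Idi1 lower in every WD+F+CCl4 mouse than in every HFD+F+CCl4 mouse, while edgeR called 0 genes.

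In 5 further groups edgeR called 0 members between the models, with 5, 5, 5, 4 and 4 at an unadjusted p under 0.05 in the order of the groups in the next sentence. The median log2 fold change of WD+F+CCl4 over HFD+F+CCl4 was 0.07 for the 21 patrolling markers, 0.49 for 13 classical markers, 0.94 for 18 interferon-stimulated genes, -0.68 for 12 MHC class II genes and -0.61 for 15 inflammatory genes, against 0.00 for all genes. Of these groups the mice of the models did not overlap in 7, 5, 2, 4 and 4 members, against 10.8% of all genes in either direction, a share that the 2 of 18 interferon-stimulated genes stand close to. DESeq2 called 1 patrolling marker, Ceacam1 (0.87, adjusted p = 0.00075), 1 classical marker, Chil3 (2.95, adjusted p = 8.02e-08), and 1 MHC class II gene, Cd83 (-1.36, adjusted p = 0.00553). With 3 mice a group the design limits what could be called, and a p that misses the threshold does not show that the models were alike.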

How the data were processed

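The deposited values are whole UMI counts in 1 matrix of 55450 genes and 88581 barcodes, made with Cell Ranger on GRCm38 (bcl2fastq 2.20 is named in the processing notes) and not filtered for cell quality, with a suffix on each barcode that gives the mouse. The header of the matrix names an earlier Cell Ranger version than the methods of the study. Not given in the sources used here are any removal of free RNA, subsampling and the annotation release, and the gene identifiers all matched GENCODE M21.

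Barcodes were kept and gated on raw UMIs as the report states, and UMIs were summed per mouse and gate, since cells of 1 mouse are not replicates. Sums were tested in edgeR 4.0.16 by its quasi-likelihood test after TMM scaling (filterByExpr, minimum count 10, Benjamini-Hochberg adjustment over all genes tested, threshold 0.05) with limma 3.58.1 in R 4.3.3, and with DESeq2 1.42.0 as an alternative. The mouse was a block between gates, because both sums come from 1 animal. CPM are UMIs per 1000000 UMIs of the sum. For shares, exact two-sided permutation tests were run in SciPy 1.17.1, and shares of single mice carry exact (Clopper-Pearson) 95% intervals. The summing and tests were tested on simulated data. Python 3.11.15, numpy 2.4.6, pandas 2.3.3, scanpy 1.11.5 and matplotlib 3.10.9 were used.

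The rule for named genes took the 10 largest rises and the 10 largest falls between gates with an adjusted p under 0.05, a log2 CPM of at least 5 and 1 direction in every mouse, leaving out gate, ribosomal, mitochondrial and predicted genes. Between the models, where none was called, it took the 5 genes of lowest p, and members of the gene lists were named as examples. Cells, lists and tests were chosen with earlier results of these data known. Values of Idi1, Serpinb10, Serpina1c and the sterol list were chosen after values were seen. Libraries of different mice shared few barcode sequences, 1.70% of the members against 1.78% of all kept NASH barcodes. Doublets were kept, and as an alternative the barcodes of highest Scrublet score were removed by rank, 0.8% per 1000 barcodes or 6824 in all, which took 7.21% to 9.07% of the members of each NASH mouse. Other alternatives were stricter gates and limits, normalization, filters, the block, and each mouse left out. That the mice of a group are separate animals follows from their labels as separate samples. Some genes enter the tests and list counts and are not reported here by themselves.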

Additional observations from a re-analysis of the deposited data

Results flagged for a closer look

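Whether the difference between patrolling and classical monocytes itself differed between the models was tested with an interaction term in edgeR's quasi-likelihood test with Benjamini-Hochberg adjustment, a test added after seeing the data. It called 28 of 9322 genes (547 at an unadjusted p under 0.05), and against Trem2 Gpnmb macrophages 0 of 12062 (780 at an unadjusted p under 0.05). Values are the log2 fold change of patrolling over classical monocytes in WD+F+CCl4 mice minus that in HFD+F+CCl4 mice, for the 15 called genes that belong to the named genes and lists, and n is 3 mice a model.

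The monocyte genes Chil3 (1.72, adjusted p = 1.12e-07), Ifitm6 (1.14, adjusted p = 3.39e-05) and Plac8 (0.93, adjusted p = 7.12e-05) were relatively higher in the patrolling monocytes of WD+F+CCl4 mice and kept their call with each mouse left out in turn. The complement gene C1qb was relatively lower (-1.09, adjusted p = 0.00053), also with each mouse left out in turn. Hopx (1.20) and Ifi27l2a (0.83) were relatively higher and Lpl (-0.84) and Eno3 (-1.82) relatively lower, but these lost their call in 5, 3, 3 and 4 of the 6 fits that left out a mouse.

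Among markers of other cells, the neutrophil genes S100a8 (-2.04), S100a9 (-1.62) and Retnlg (-2.69) were relatively lower, of which Retnlg lost its call without HFD+F+CCl4 replicate 3. The hemoglobin genes Hbb-bt (-8.42), Hbb-bs (-8.40), Hba-a1 (-8.69) and Hba-a2 (-7.75) had the largest differences. Hbb-bt ranged from -14.5 to -7.68 with 1 mouse left out. Its UMIs were at 0 in 2 classical sums, so its exact size is not fixed. Summed red cell genes stood at 3.14, 3046 and 3751 CPM in the patrolling and 0, 48.2 and 62.1 CPM in the classical monocytes of the HFD+F+CCl4 mice, and at 39.0, 105 and 675 and 176, 460.0 and 4534 CPM in those of the WD+F+CCl4 mice, so the patrolling sums were above the classical sums in each HFD+F+CCl4 mouse and below them in each WD+F+CCl4 mouse, and 1 classical sum held no such UMI. Reads of Hba-a1 and Hba-a2, and of the Hbb genes, may be shared between near-identical copies. The source of these transcripts was not tested.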

How the results depend on the processing

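The difference in share between the models ranged from -6.25 to 2.76 percentage points when 1 mouse was left out, and it turned to 2.76 without HFD+F+CCl4 replicate 3. Other gates, limits, denominators and thinning gave -2.23 to -3.18 percentage points. Against classical monocytes 3735 genes were called, 3133 to 3654 with 1 mouse left out, 3062 with DESeq2 and 3209 with no replicate block. Relative to Trem2 Gpnmb macrophages 6521 were called, 5875 to 6444 with 1 mouse left out, 5654 with DESeq2 and 5244 with no replicate block. Of the 158 and 185 called genes of the lists and named genes, 41 and 40 lost their call under at least 1 alternative, most often without the block, while the 20 genes named by rule in each comparison kept theirs under all alternatives run. Between the models 0 genes were called, 37 with DESeq2, 100 with no filter beyond 1 count, 7 without doublets by rank, and 0 to 1 with 1 mouse left out, the 1 being without WD+F+CCl4 replicate 3. The cause was not tested.

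Signs turned, among values called in either fit, for Ier3 with no replicate block (0.062), Cxcl16 in cells with both gate genes (-0.31) and Spp1 without WD+F+CCl4 replicate 1 (0.46, range -0.39 to 0.46 with 1 mouse left out), all against classical monocytes. Relative to the macrophages they turned for Cd209a (-0.98), H2-DMb2 (-0.87), Mgl2 (-0.72) and Flt3 (-8.91) in cells with no UMI of Xcr1, Clec9a or Flt3, which by construction removes Flt3, and without HFD+F+CCl4 replicate 2 for Hba-a2 (-0.62, range -0.62 to 0.43 with 1 mouse left out), Hba-a1 (-0.67, range -0.67 to 0.30) and Hbb-bt (-0.81, range -0.81 to 0.63). The cause of the others was not tested.

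Deviations of same-numbered mice of the 2 models correlated at -0.224, 0.0813 and -0.389, and a replicate block between the models called 0 genes (525 at an unadjusted p under 0.05). Some mice of different number correlated more, with 0.393 for HFD+F+CCl4 replicate 1 and WD+F+CCl4 replicate 3. HFD+F+CCl4 replicate 3 and WD+F+CCl4 replicate 2 reached 0.322. Whether mice of the 2 models were handled together was not tested. NASH against control was not run for genes because a control mouse held 5 cells, under the minimum of 20. Classical sums held between 92838 and 1469560 UMIs, from as few as 24 cells, which limits low genes. Between cell classes, p-values measure how the difference within a mouse varied over the 6 mice. Between the models, those of edgeR and DESeq2 measure the spread of mice within a model.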

Other observations

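Classical monocytes were present in control livers, where patrolling monocytes were scarce. The classical gate took 126 and 21 cells in the control mice, against 47 and 5 by the patrolling gate. In the NASH mice the order was the opposite in 6 of 6 mice, with 24, 46 and 132 classical and 761, 745 and 2646 patrolling monocytes in the HFD+F+CCl4 mice and 231, 261 and 122 against 838, 1207 and 1206 in the WD+F+CCl4 mice. The gates differ in strictness, so these numbers do not give a ratio of the cell types, and the contrast with control belongs to the rule that chose the cells.

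Type 1 dendritic cell markers in the patrolling monocytes of NASH mice were few but present, with Xcr1 at 12.4 ± 9.34 CPM against 2.04 ± 1.74 CPM in Trem2 Gpnmb macrophages (SD, n = 6 mice, log2 fold change 2.51, adjusted p = 0.00479). Of the 8 markers on that list 5 were higher than in the macrophages (Xcr1, Snx22, Itgae, Zbtb46 and Flt3), 2 lower (Cadm1 and Batf3) and 1 not called (Clec9a). Over all genes 26.3% were higher and 27.8% lower in that comparison. Itgae lost its call under 5 of the alternatives, Zbtb46 under 2 and Flt3 under 3, among them the gate that removes cells with Flt3. Treml4 is also known from such dendritic cells. With the members that held Xcr1, Clec9a or Flt3 left out, 1866 genes were called higher and 1888 lower against classical monocytes, where 2092 and 1643 were called with them. Against Trem2 Gpnmb macrophages the counts were 3157 and 3479 without and 3173 and 3348 with these members.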
